A study of Mus musculus with 71 samples.

Results

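Pro-B cells in which CRD1, a regulatory domain in the C-terminal part of Pax5, is deleted and the second gene copy is null, named Pax5(DCRD1/-), were compared with wild-type Pax5(+/+) pro-B cells by RNA-seq. The comparison took every RNA-seq sample that the labels gave these genotypes and pro-B cell type, which was 7 of the 71 samples of the series: 2 of Pax5(DCRD1/-) and 5 of Pax5(+/+). It covered 13012 of the 25579 listed genes, which were all genes above 1 TPM in at least 1 of the 7 samples. TPM is the share of a gene among all transcripts of a sample, corrected for gene length and scaled to the same total in every sample. The mutant cells carried 1 Pax5 allele without exons 8 and 9 and 1 null allele, so that the Pax5 protein without CRD1 was made from a single gene copy, whereas the controls had both copies intact. A change between the genotypes can therefore not be divided into an effect of the lost domain and an effect of the lost copy. Cells of both genotypes were sorted directly from mouse bone marrow by surface markers, with B220 and Kit among those selected for and CD2, IgM and IgD among those selected against. The mice were on a C57BL/6 background. The DCRD1 allele was made by genome editing of zygotes and was crossed to C57BL/6, and ages were not given in the labels. The labels give 100-nt reads for both mutant samples and for Pax5(+/+) replicates 3 and 4, and 50-nt reads for Pax5(+/+) replicates 1, 2 and 5, so read length was a term of the fit and the genotype difference rests on 2 mutant and 2 wild-type samples.

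Pax5 is a transcription factor of the paired domain family that commits lymphoid progenitors to the B cell lineage. It activates genes of the B cell programme, among them genes of the pre-B cell receptor and its signalling, and represses genes of other lineages. Its C-terminal part holds a transactivation domain, which lies within CRD1, followed by an inhibitory domain, most of which lies in a region that the study calls CRD2. Pro-B cells are the bone marrow stage at which the immunoglobulin heavy-chain gene is recombined.

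The sequences below define the deletion, because the deposited values are for whole genes and do not show it. Pax5 lies on the minus strand of mouse chromosome 4 (GRCm38.p6, chr4:44524748-44710694) and its RefSeq transcript has 10 exons. The removed exons code for CRD1 and are given 5′ to 3′ on the coding strand. Capitals in exon 8 mark the site of the genotyping primer that the deletion removes. In the guides, written in the orientation in which the adjacent motif for Cas9 (PAM) is at the 3′ end, capitals mark that motif.
exon 8, chr4:44570002-44570103, minus strand: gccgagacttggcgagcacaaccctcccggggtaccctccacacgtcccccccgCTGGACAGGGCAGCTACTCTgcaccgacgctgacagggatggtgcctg
exon 9, chr4:44537420-44537506, minus strand: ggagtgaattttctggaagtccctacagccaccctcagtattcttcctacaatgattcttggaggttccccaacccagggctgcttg
sgRNA-3, chr4:44570465-44570487, minus strand: agaaccagtcagaagcaacgGGG
sgRNA-4, chr4:44537066-44537088, plus strand: gacatcattaatcaatcactGGG
The sgRNA-3 site is in intron 7 and the sgRNA-4 site is in intron 9. Cuts 3 bp from each motif would release 33388 bp (chr4:44537083-44570470) with both exons. The 2 exons hold 189 coding bases, a multiple of 3, and make up 2.3% of the 8220-bp transcript, so their loss would hardly alter a whole-gene value.

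The TPM values of genes whose length could be derived were turned back into whole reads in every sample, which gave 25403933 to 34905750 reads per Pax5(+/+) sample and 32378541 and 32691817 reads for the mutants. Of the genes of the gate, Kit was at least 52.9 TPM in every sample, and Cd2, whose product was selected against, was at most 7.79 TPM. Markers of other blood cells, given below, were uneven between samples. The summed level of neutrophil and monocyte markers ran from 1025 to 7876 TPM over the Pax5(+/+) samples, highest in replicate 4. It was 302 and 542 TPM in the mutants. Among Pax5(+/+) samples, 909 genes (7.15%) differed over 2-fold between the mean values of the 50-nt and 100-nt samples, which is why values of all 5 are given below and the fold changes are adjusted for read length. The filter left A730081D07Rik, at most 1.00 TPM, just inside and Atp8b3, at most 0.999 TPM, just outside.

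Pax5 mRNA itself was not called different. It stood at 498, 524, 342, 360 and 489 TPM in Pax5(+/+) replicates 1 to 5 and at 451 and 410 TPM in the mutants. The mutant values lay inside the wild-type range, above the 100-nt and below the 50-nt wild-type samples. The log2 fold change was 0.29 (SE 0.12, 95% interval 0.01 to 0.58, adjusted p = 0.217, limma with Benjamini-Hochberg adjustment), and it was -0.02 without the read-length term, so no direction can be given for it. A whole-gene value does not tell which allele a transcript came from. It was 1609 and 1697 TPM in Vav-Cre Pax5(fl/fl) progenitors, in which Pax5 is inactivated. How much of the mutant values came from the null copy was not tested.

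Many genes differed, and more were lower than higher in Pax5(DCRD1/-) pro-B cells. Of the 12707 genes tested after immunoglobulin and histone genes were set apart, 984 (7.74%) were called at an adjusted p below 0.05, with 374 higher (2.94%) and 610 lower (4.8%) in the mutant. The thresholds of the study, which ask for a difference of more than 3-fold besides the adjusted p and for a mean level over 5 TPM in 1 genotype, left 107 higher (0.842%) and 194 lower (1.53%) genes. Their median log2 fold changes were 2.22 and -2.32, beside a median of 0.03 over all genes tested. In 298 of the 301 genes past these thresholds, both mutant values lay outside the range of the 5 Pax5(+/+) values, and the exceptions were Alas2, Hmox1 and Mir6935. Over all genes both mutants lay above every wild-type sample in 14.2% and below every one in 20.5%. Of the 194 lower genes, 41 had a mean under 1 TPM in the mutant and 50 were lower by over 8-fold, whereas 19 of the 107 higher genes were higher by over 8-fold. In bulk samples fewer cells of a type and less RNA per cell cannot be told apart. The 26 lists of genes used below held 437 genes that were tested, of which 131 were called. Counts of a list are to be read beside the 7.74% called over all genes, 2.94% higher and 4.8% lower. In the scatter plot of mean expression the genes past the thresholds leave the diagonal on both sides. With so few samples the calls depend on each of them: without mutant replicate 1 or 2 61 and 60 higher and 165 and 201 lower genes were called, without Pax5(+/+) replicate 3, 146 higher and 322 lower, and without replicate 4, 325 lower. Past the thresholds, 50 and 48 genes were higher without mutant replicate 1 or 2, and 114 were lower without mutant replicate 1. Of the 301 genes, 238 and 249 were still called without Pax5(+/+) replicate 3 or 4. All 301 kept their direction in these fits and without mutant replicate 1 or 2. For the 298 whose mutant values lay outside the wild-type range, leaving out a sample could not change it.

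**Figure D1:**
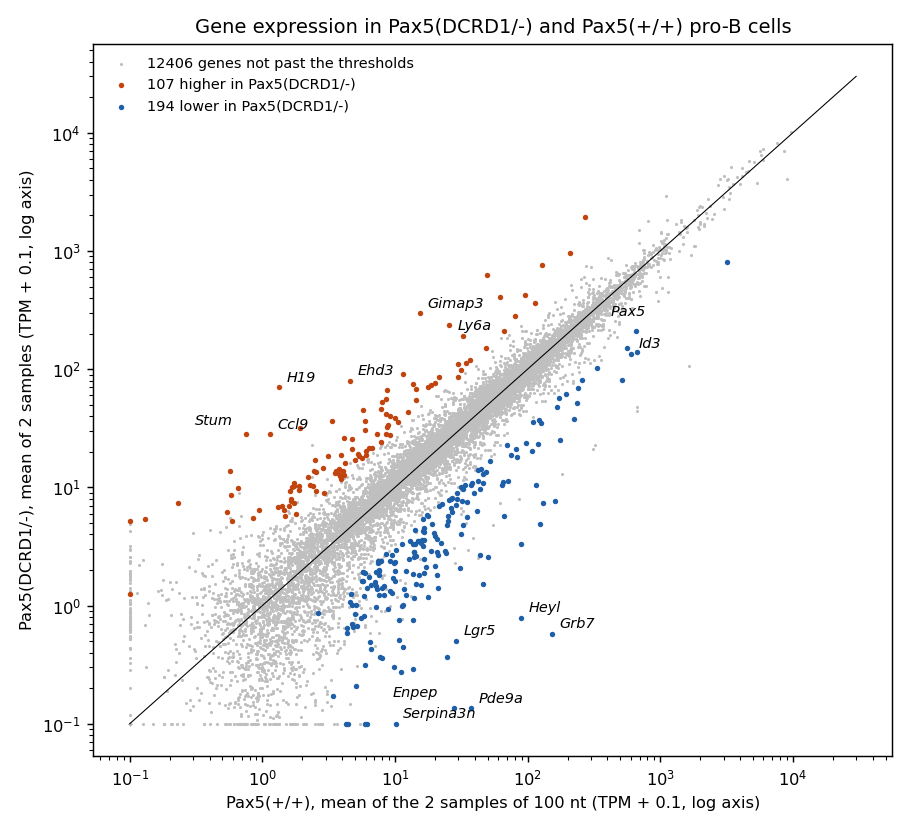
Mean TPM of each gene tested in the 2 Pax5(+/+) samples of 100 nt (x axis) and the 2 Pax5(DCRD1/-) samples (y axis), on log axes with 0.1 TPM added and the line of equality drawn. The 107 higher (orange) and 194 lower (blue) genes lie on either side of the line, and the lower ones reach 0 TPM in the mutant, as for Serpina3n.

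The lowest genes of the mutant were almost silent. Grb7, an adaptor protein of receptor tyrosine kinase signalling (chr11:98446834-98455373), measured 112, 150, 172, 135 and 123 TPM in Pax5(+/+) and 0.586 and 0.367 TPM in the mutants, a log2 fold change of -8.07 (SE 0.24, adjusted p = 1.05e-05). Pde9a, a cGMP phosphodiesterase (chr17:31386105-31476309), measured 30.9, 51.3, 33.8, 41.1 and 33.1 TPM against 0 and 0.0710 TPM. Its 2 mutant reads, against 2076 reads in the 100-nt wild-type samples, made a ratio of 1058 with an exact 95% counting interval of 292 to 8740. All 5 wild-type samples expressed both genes, and no mutant value came near them. Heyl, a transcriptional repressor of the Hes and Hey family that responds to Notch signalling in other cells (chr4:123233556-123249870), stood at 82.2, 83.4, 105, 73.7 and 75.6 TPM in Pax5(+/+) and at 0.587 and 0.792 TPM in the mutants (log2 fold change -6.82, SE 0.22, adjusted p = 1.05e-05). Enpep, glutamyl aminopeptidase, known on early B cells as BP-1 (chr3:129269177-129332749), ran from 18.8 to 29.7 TPM in Pax5(+/+) and was 0.0703 and 0 TPM in the mutants (log2 fold change -7.72, SE 0.32, adjusted p = 3.63e-05). That the groups do not overlap was a condition of the choice of these genes.

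The other genes among the 10 lowest followed the same pattern at lower levels. The tight-junction gene Cldn4 ran from 16.8 to 29.7 TPM in Pax5(+/+) and was 0.163 and 0.364 TPM in the mutants, a log2 fold change of -6.14 (adjusted p = 0.000210). Lgr5, a receptor for R-spondins, ran from 23.4 to 57.2 TPM and was 0.251 and 0.560 TPM in the mutants, lower by 59.0-fold (adjusted p = 0.000329), and its 2 highest wild-type values were those of 50-nt samples. Rd3l was 49.3-fold lower (adjusted p = 0.000283). Serpina3n, a serine protease inhibitor, Col5a3, a collagen chain, and 2310008N11Rik had no read in either mutant. Against a floor of 3 reads over the group they were at least 187-fold, 338-fold and 29.6-fold lower than in the 100-nt wild-type samples. In these samples Col5a3 stood at 5.94 and 6.25 TPM and Serpina3n at 11.7 and 8.35 TPM. All 10 genes kept their call without any 1 sample.

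On the other side, genes that were nearly off in Pax5(+/+) reached clear levels in the mutant. H19, an imprinted long non-coding RNA (chr7:142575530-142578146), rose from 0.565, 0.628, 1.72, 0.767 and 1.61 TPM to 78.1 and 61.9 TPM, a log2 fold change of 5.79 (SE 0.54, adjusted p = 0.000972). Stum ran from 0.491 to 0.803 TPM in Pax5(+/+) and was 29.8 and 26.6 TPM in the mutants (38.7-fold, adjusted p = 0.000283). Gimap3, a GTPase of lymphocytes (chr6:48764464-48770851), ran from 9.997 to 21.1 TPM and was 303 and 288 TPM in the mutants (19.3-fold, adjusted p = 0.000340). In each of these the lower mutant value was far above the highest wild-type value. Ehd3, an endocytic recycling protein, was 3.52 to 5.47 TPM against 74.1 and 85.2 TPM (17.7-fold, adjusted p = 0.000210), and Hnrnpll, an RNA-binding protein that regulates alternative splicing in lymphocytes, was 1.23 to 3.82 TPM against 32.8 and 30.5 TPM (17.4-fold, adjusted p = 0.000851). The semaphorin Sema6d rose 32.0-fold and Fam78b 24.4-fold (adjusted p = 0.00146 and 0.000619).

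The 3 remaining genes of the 10 highest lost their call when 1 sample was left out. The chemokine gene Ccl9 was 0.268 to 1.82 TPM in Pax5(+/+) and 30.7 and 25.3 TPM in the mutants (33.3-fold, adjusted p = 0.00497), and the call was lost without mutant replicate 1 (adjusted p = 0.0765) or 2 (adjusted p = 0.0627). The gene listed as ccdc198 was at most 0.0821 TPM in Pax5(+/+) and 6.02 and 4.52 TPM in the mutants, with 1 read in the 100-nt wild-type samples against 167 in the mutants, and its call (adjusted p = 0.00386) was lost without mutant replicate 1 (adjusted p = 0.0722). Mir7052 had 9 reads in both mutants together and none in the 100-nt wild-type samples, which makes it at least 2.94-fold higher against a floor of 3 reads, under the 3-fold threshold that its fitted value passed. Its call (adjusted p = 0.0349) was lost without Pax5(+/+) replicate 3 or 4 or either mutant (adjusted p from 0.103 to 0.215), and with edgeR (0.149) and DESeq2 (0.466).

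**Figure D2:**
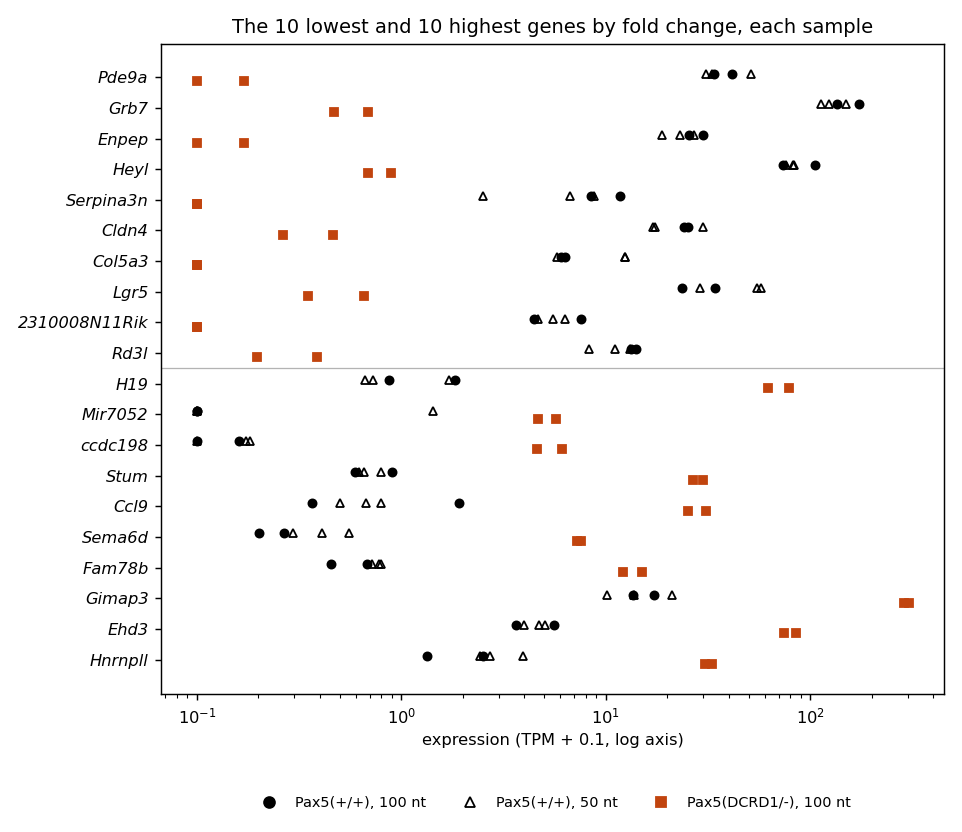
TPM of the 10 lowest and 10 highest genes past the thresholds in each of the 5 Pax5(+/+) samples (circles 100 nt, triangles 50 nt) and the 2 Pax5(DCRD1/-) samples (squares), on a log axis with 0.1 TPM added. The 20 genes were chosen so that both mutant points lie outside the range of the wild-type points.

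Transcription factors of the B lineage were more often lower than higher: of the 25 listed, 9 fell, 1 rose and 15 did not pass, with a median log2 fold change of -0.37. Besides Heyl, the strongest decrease was that of Ikzf3, which encodes Aiolos, a zinc-finger partner of Ikaros. Ikzf3 stood at 67.0, 51.7, 15.01, 27.1 and 51.9 TPM in Pax5(+/+) and at 1.48 and 1.14 TPM in the mutants (log2 fold change -3.86, SE 0.30, adjusted p = 0.000426). Id3, an inhibitor of E-protein DNA binding, measured 433, 619, 681, 528 and 613 TPM against 130 and 141 TPM (log2 fold change -2.15, SE 0.21, adjusted p = 0.00117). Both mutants were below every wild-type sample for these genes, as in 17 of the 25 listed, beside 20.5% over all genes. Log2 fold changes were -2.87 for Klf2, a quiescence and trafficking factor of lymphocytes, -1.99 for Bach2, a repressor that holds back plasma cell differentiation, and -1.12 for Lef1, a Wnt pathway factor of early B cells (adjusted p = 0.000893, 0.000893 and 0.00670). The remaining lower factors are named after their values were seen: Tcf3, the source of the E2A proteins, had a log2 fold change of -1.09, Irf8 of -1.11 and Spib of -0.79 (adjusted p = 0.00686, 0.00173 and 0.0131). The only factor of the list that rose was Spi1, coding for PU.1, which was 109 to 189 TPM in Pax5(+/+) and 206 and 220 TPM in the mutants (log2 fold change 0.86, adjusted p = 0.0262). Ebf1, the factor that acts with Pax5 in specifying B cells, was 255 to 594 TPM in Pax5(+/+) and 293 and 312 TPM in the mutants (log2 fold change 0.05, 95% interval -0.46 to 0.57, adjusted p = 0.934). Leaving out Pax5(+/+) replicate 3, mutant replicate 1 or mutant replicate 2 left 6 lower factors in each case, and Spi1 lost its call without any 1 of the 4 samples of 100 nt (adjusted p from 0.059 to 0.188).

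Of 29 tested genes of the pre-B cell receptor and its signalling, 7 fell, 2 rose and 20 did not pass, and the median log2 fold change was -0.12. Of the receptor components, none of the following was called: Igll1, a surrogate light chain gene, was 4067 to 6029 TPM in Pax5(+/+) and 5614 and 6251 TPM in the mutants (log2 fold change 0.00, 95% interval -0.35 to 0.35). Cd79b, a signalling chain, was 1861 to 2485 TPM against 2360 and 2397 TPM (log2 fold change 0.01, 95% interval -0.30 to 0.32), and its partner Cd79a was 2597 to 4361 TPM against 2261 and 2232 TPM (log2 fold change -0.41, adjusted p = 0.423).

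Among the genes that fell were receptors and adaptors. Fcrla, an Fc receptor-like protein of B cells, showed the strongest decrease of this list, from 115 to 324 TPM in Pax5(+/+) down to 7.79 and 6.79 TPM (log2 fold change -4.14, SE 0.29, adjusted p = 0.000293). Lcp2, the adaptor SLP-76, fell by 2.76, Fcgr2b, the inhibitory Fc receptor, by 2.37, and Pik3ap1, the adaptor BCAP, by 1.88, all on the log2 scale (adjusted p = 0.00143, 0.000548 and 0.000275). Cd72 fell by 1.36 and the inhibitory coreceptor Cd22, named after its values were seen, by 1.32 (adjusted p = 0.0290 and 0.00270). The 2 genes that rose were Fcrl1, from 3.54 to 7.91 TPM up to 17.2 and 16.7 TPM (adjusted p = 0.0145), and the phospholipase gene Plcg2, from 323 to 370 TPM up to 560 and 628 TPM (adjusted p = 0.0153; named after its values were seen). The 2 calls of higher genes were lost without mutant replicate 1, mutant replicate 2 or Pax5(+/+) replicate 3 (adjusted p from 0.0653 to 0.152), and that of Plcg2 also without replicate 4 (adjusted p = 0.0552). Cd72 lost its call without Pax5(+/+) replicate 1, 3 or 4 or either mutant (adjusted p from 0.056 to 0.252).

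The recombination machinery of the V(D)J reaction had 1 of 12 genes lower and none higher. This was 8.33% called, close to the 7.74% over all genes, and the median log2 fold change was 0.04. edgeR and DESeq2 each called 1 lower and 2 higher, and without Pax5(+/+) replicate 4 there was 1 higher. The lower gene was Polm, a DNA polymerase of end joining, at 41.5, 36.8, 8.92, 13.2 and 21.6 TPM in Pax5(+/+) and 0.253 and 0.1002 TPM in the mutants (41.2-fold, adjusted p = 0.000393). Rag1, a subunit of the recombinase, was 384 to 822 TPM against 544 and 489 TPM, and Dntt, which adds nucleotides at the joints, was 2487 to 3373 TPM against 3918 and 4187 TPM (log2 fold changes 0.13 and 0.31, adjusted p = 0.872 and 0.256).

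Of 22 tested genes of later B cell stages and of antigen presentation 9 fell, 1 rose and 12 did not pass, and the median log2 fold change was -1.43. H2-Aa, a chain of MHC class II, stood at 49.2, 35.6, 11.7, 28.1 and 24.2 TPM in Pax5(+/+) and at 1.77 and 2.34 TPM in the mutants (8.55-fold, adjusted p = 0.00634), and H2-Eb1 was 6.34-fold lower (adjusted p = 0.00507). The chemokine receptor gene Cxcr5 was 17.0, 37.4, 44.4, 43.4 and 39.1 TPM against 9.78 and 9.36 TPM (4.55-fold, adjusted p = 0.0112). In all 3 genes both mutants were below every wild-type sample, as in 16 of the 22 tested, beside 20.5% over all genes. Ms4a1, which codes for CD20, was 2.14 to 30.5 TPM against 0.397 and 0.689 TPM (adjusted p = 0.0441), and Fcmr, the IgM Fc receptor, was 4.19-fold lower (adjusted p = 0.00784). Cd2, whose product the gate excluded, had no read in either mutant and was at least 57.1-fold lower. Ltb, a cytokine of the tumour necrosis factor family named here after its values were seen, was the gene that rose, from 186 to 284 TPM up to 499 and 437 TPM (adjusted p = 0.0176). Without mutant replicate 1 or 2 only 2 genes of this list were called lower and none higher, and without Pax5(+/+) replicate 4 7 were lower and none higher.

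Genes of multipotent progenitors moved in both directions, with 7 of 23 higher, 5 lower and a median log2 fold change of 0.35. The study names Flt3, Ly6a, Gpr25 and Il2ra of this list as repressed genes, so the count of higher genes is not independent of it. Flt3, the cytokine receptor of lymphoid progenitors (named after its values were seen), measured 11.7, 11.3, 15.7, 21.2 and 14.7 TPM in Pax5(+/+) and 77.8 and 69.8 TPM in the mutants (4.02-fold, adjusted p = 0.00146). Ly6a, coding for Sca-1, was 10.6 to 29.2 TPM against 269 and 208 TPM (9.42-fold, adjusted p = 0.000210). Both kept their call without any 1 sample. Gpr25 rose 6.69-fold (adjusted p = 0.0115). Il2ra, a chain of the interleukin-2 receptor, was 15.4, 7.77, 1.53, 3.30 and 4.44 TPM in Pax5(+/+) and 17.9 and 16.0 TPM in the mutants (7.25-fold after adjustment for read length, adjusted p = 0.0208). The mutant values were close to that of Pax5(+/+) replicate 1, a 50-nt sample, and far above the 100-nt samples. Smaller increases were seen for Kit, a gene of the gate, with 52.9 to 75.1 TPM against 98.6 and 109 TPM (adjusted p = 0.0293), and for Cd93 (1.75-fold, adjusted p = 0.0134). Among the lower genes were Hoxa9 (7.39-fold), Hoxa7 (3.74-fold) and Hoxa5 (3.04-fold), homeobox factors of progenitors, and the myeloid receptor genes Csf3r (8.21-fold) and Csf1r (3.57-fold), with adjusted p between 0.00374 and 0.0396. Csf3r and Csf1r are also counted below among the markers of neutrophils and monocytes and of macrophages. The counts of higher genes were 3 without Pax5(+/+) replicate 3, mutant replicate 1 or mutant replicate 2, and those of lower genes were 3, 2, 2, 1 and 0 without Pax5(+/+) replicates 1, 3 and 4 and mutant replicates 1 and 2.

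For Notch signalling and T-lineage genes, 3 of 17 tested were higher and 3 lower, with a median log2 fold change of -0.22. Dtx4, a ubiquitin ligase of the Notch pathway, was 1.88 to 3.50 TPM in Pax5(+/+) and 16.4 and 20.0 TPM in the mutants (5.90-fold, adjusted p = 0.00351). Tcf7, a T-lineage transcription factor, rose 2.35-fold and the kinase gene Lck 1.65-fold (adjusted p = 0.0116 and 0.0134). The kinase gene Zap70 was 13.7 to 20.7 TPM against 1.47 and 3.31 TPM (7.12-fold lower, adjusted p = 0.00370), Thy1 was 3.51-fold and Cd5 2.09-fold lower (adjusted p = 0.00655 and 0.0193). Defining T-cell genes such as Bcl11b, Ptcra, Cd8a and Cd3g were at 0 in both mutants. Without mutant replicate 2 none of the higher genes was called, and without Pax5(+/+) replicate 3, Pax5(+/+) replicate 4 or mutant replicate 1 there was 1. Of the lower genes 2 were called without Pax5(+/+) replicate 3 or 4 and 1 without either mutant.

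The Gimap genes, which code for GTPases of lymphocytes and lie together on chromosome 6, rose as a family: 7 of 8 were called higher, none lower, and the median log2 fold change was 1.75. In all 8 both mutants were above every wild-type sample, beside 14.2% over all genes. Gimap4 measured 76.0, 102, 28.2, 71.0 and 25.9 TPM in Pax5(+/+) and 659 and 591 TPM in the mutants (13.9-fold, adjusted p = 0.0107). Gimap7 rose 3.72-fold, Gimap8 3.51-fold, Gimap9 3.21-fold and Gimap6 2.16-fold (adjusted p between 0.000348 and 0.0449), and Gimap5, named after its values were seen, 1.93-fold (adjusted p = 0.00963). Gimap1 was 223 to 352 TPM in Pax5(+/+) and 364 and 376 TPM in the mutants (log2 fold change 0.60, adjusted p = 0.0605). The number called was 3 and 4 without Pax5(+/+) replicate 3 or 4 and 2 without either mutant, and Gimap3 and Gimap7 were called in each of these fits. DESeq2 called all 8.

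Adhesion and homing genes moved in both directions, with 3 of 24 higher, 6 lower and a median log2 fold change of -0.31. Spns2, a transporter of the lipid signal sphingosine-1-phosphate, rose from 5.97, 9.18, 6.06, 5.15 and 6.01 TPM to 44.9 and 45.3 TPM (7.95-fold, adjusted p = 0.000665), and Itga5, the fibronectin receptor chain, rose 1.64-fold (adjusted p = 0.0497; named after its values were seen). The integrin chains Itgb7 and Itgb4 fell 8.41-fold and 5.93-fold, the tetraspanin gene Cd9 5.98-fold and the junction gene F11r 5.00-fold (adjusted p = 0.0132, 0.00366, 0.000340 and 0.0107). Itga5 was not called without Pax5(+/+) replicate 3, 4 or 5 or either mutant (adjusted p from 0.059 to 0.289). Of the lower genes, 3 were called without either mutant and 4 without Pax5(+/+) replicate 3.

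Markers of other blood cells were lower as well. Over 6 lists for neutrophils and monocytes, macrophages, erythroid cells, eosinophils and basophils, plasmacytoid dendritic cells and NK cells, 84 markers were tested, of which 24 were called lower, 2 higher and 78 lay below 0 on the log2 scale. In 52 of them both mutants were below every wild-type sample, beside 20.5% over all genes. The summed levels of the macrophage markers were 70.4 to 187 TPM in Pax5(+/+) and 53.1 and 70.7 TPM in the mutants, those of eosinophils and basophils 82.4 to 347 TPM against 17.6 and 48.8 TPM, and those of plasmacytoid dendritic cells 317 to 377 TPM against 247 and 276 TPM. For NK cells the sums were 25.8 to 59.6 TPM against 32.3 and 34.7 TPM and for erythroid markers 1492 to 4088 TPM against 1644 and 1829 TPM, so that these overlapped. The erythroid overlap rests on Car2, which was higher in the mutants. Without it, a choice made after its values were seen, the sums were 1308 to 3777 TPM against 893 and 1080 TPM and did not overlap. These markers made up 17 of the 194 lower genes past the thresholds and none of the 107 higher ones. Their part in the other results was not tested. Without Pax5(+/+) replicate 4, the sample highest in neutrophil markers, 153 of the 194 lower genes were still called, and the neutrophil sums of the other wild-type samples also lay above those of the mutants.

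**Figure D3:**
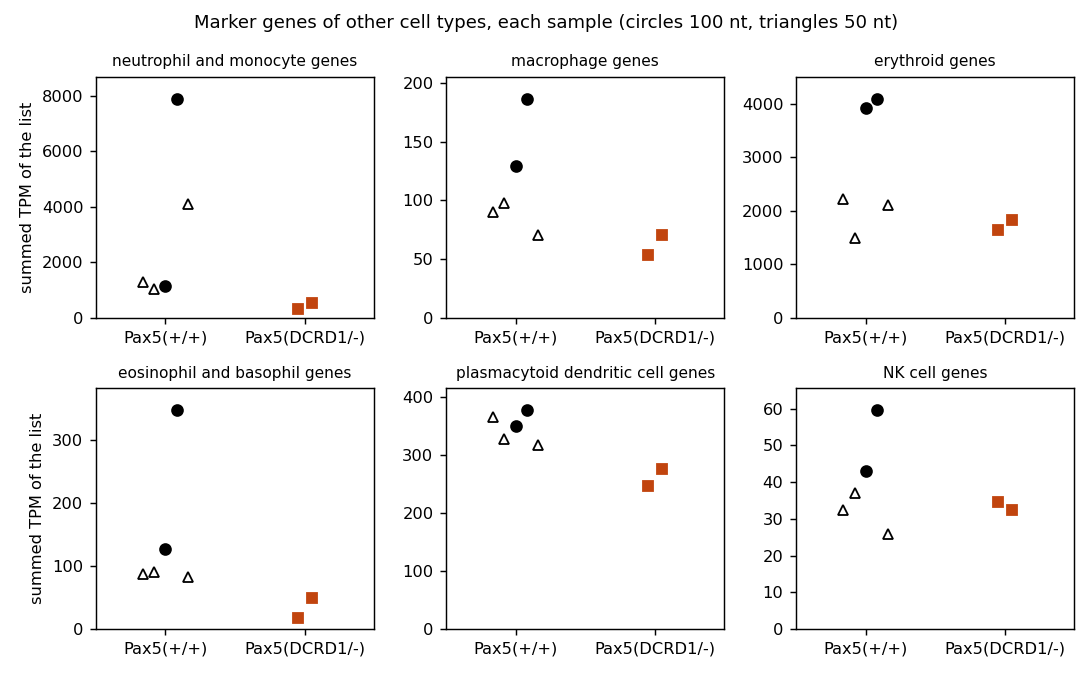
Summed TPM of the markers of 6 other blood cell types (1 panel each, linear axis from 0) in the 5 Pax5(+/+) samples (circles 100 nt, triangles 50 nt) and the 2 Pax5(DCRD1/-) samples (squares). The neutrophil and monocyte sums of the mutants, 302 and 542 TPM, lie below all 5 wild-type sums, while the NK sums overlap and the erythroid sums overlap through Car2 alone.

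Within these lists, 2 of 22 neutrophil and monocyte genes were called (9.09%, close to the 7.74% over all genes). All 22 lay below 0 and the median log2 fold change was -2.91. The receptor gene Csf3r and Itgam, the integrin chain CD11b, were the called ones (8.21-fold and 2.81-fold, adjusted p = 0.0392 and 0.0183), and edgeR and DESeq2 each called 19. Pax5(+/+) replicate 4 was the highest sample for 17 of these genes and replicate 5 for 5. Without Pax5(+/+) replicate 3 or 5, 11 were called, without replicate 1, 2 or 4, 1, and without either mutant none. Macrophage genes were lower in 6 of 17, namely Cd5l, C1qc, C1qb, C1qa, Hmox1 and Csf1r (median log2 fold change -1.66), and the complement genes C1qa, C1qb and C1qc fell 4.49-fold, 4.67-fold and 5.27-fold. Only 1 was called without mutant replicate 1, and 3 and 4 without Pax5(+/+) replicate 4 or 3.

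Of the erythroid genes 8 of 17 were lower and 1 higher, with a median log2 fold change of -1.81. Hbb-b2, a beta-globin gene whose reads can fall on near-identical copies, was 1551, 1028, 3274, 3123 and 1520 TPM in Pax5(+/+) and 718 and 885 TPM in the mutants (4.01-fold, adjusted p = 0.00179). Other globin genes, Hbb-bs, Hba-a1 and Hba-a2, were listed at 0 in every library. The transcription factor gene Klf1, the blood group gene Rhd and the membrane genes Ermap and Sptb were 3.80-fold to 4.25-fold lower (adjusted p from 0.0189 to 0.0448). The exception was Car2, a carbonic anhydrase gene named after its values were seen, which rose from 185 to 311 TPM up to 751 and 749 TPM (2.75-fold, adjusted p = 0.00287). The lower count was 3 without Pax5(+/+) replicate 4, 1 without mutant replicate 1 and 2 without mutant replicate 2. Eosinophil and basophil genes were lower in 4 of 10, with Prg3 15.2-fold, Prg2 7.28-fold, Gata2 6.36-fold and Epx 6.15-fold lower (adjusted p from 0.00277 to 0.0490). Only 1 was called without Pax5(+/+) replicate 2 or 4 or mutant replicate 1, and 2 without Pax5(+/+) replicate 1 or mutant replicate 2. For plasmacytoid dendritic cells Cd300c and Cox6a2 fell and Pacsin1 rose, of 13 tested (16.5-fold, 15.6-fold and 3.06-fold), but the mutants were inside the wild-type range for Pacsin1, with 0.619 to 2.98 TPM against 2.26 and 2.37 TPM. Pacsin1 was called in no fit that left out Pax5(+/+) replicate 1, 2, 3 or 4 or a mutant (adjusted p from 0.0674 to 0.245), and 1 gene of the list was called lower without Pax5(+/+) replicate 1, 2 or 4 or either mutant. Among NK genes Gzma and Prf1 fell, of 7 tested (8.94-fold and 4.22-fold), and 1 was called without Pax5(+/+) replicate 2 or 4 and none without Pax5(+/+) replicate 3 or either mutant.

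Of the cell-cycle genes 3 of 35 were higher and 2 lower, with a median log2 fold change of -0.43. The higher ones code for D-type cyclins and their kinase: Ccnd1 was 4.27 to 6.10 TPM in Pax5(+/+) and 25.9 and 16.2 TPM in the mutants (4.31-fold, adjusted p = 0.00456), Ccnd2 79.6 to 111 TPM against 224 and 195 TPM (2.22-fold, adjusted p = 0.00703) and Cdk6 51.3 to 103 TPM against 198 and 172 TPM (2.98-fold, adjusted p = 0.00383). Cdc25b, an activating phosphatase of mitosis, was 635 to 727 TPM against 127 and 150 TPM (4.84-fold lower, adjusted p = 0.000210), and the inhibitor gene Cdkn2d was 3.19-fold lower (adjusted p = 0.00146). In these 5 genes, named because they were called, both mutants lay outside the wild-type range. Of all 35 genes of the list, both mutants were below it in 15 and above it in 10, beside 20.5% and 14.2% over all genes. Without mutant replicate 1 none of the 3 higher genes was called (adjusted p from 0.0652 to 0.0981), and without replicate 2 Ccnd2 was not (adjusted p = 0.0564). Without Pax5(+/+) replicate 2, 5 genes of this list were higher and 5 lower, and without replicate 5, 4 were lower. Of 14 genes of the Bcl2 family 2 fell, the survival gene Bcl2l1 from 111 to 143 TPM down to 57.5 and 65.0 TPM (2.02-fold, adjusted p = 0.00880) and the pro-apoptotic gene Bik (4.75-fold, adjusted p = 0.0124), and neither was called without Pax5(+/+) replicate 3 or either mutant. The median log2 fold change of the family was -0.07.

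Genes of glucose and energy supply were close to the all-gene background, with 1 of 29 called and a median log2 fold change of 0.04. The called gene was the transporter Slc2a6, at 1.73 to 2.79 TPM in Pax5(+/+) and 13.6 and 13.6 TPM in the mutants (5.71-fold, adjusted p = 0.00337), and it was not called without mutant replicate 1 or 2 (adjusted p = 0.0611 and 0.0554). For interferon-stimulated genes 2 of 26 were higher and 2 lower, with a median log2 fold change of -0.13. Cgas, the cytosolic DNA sensor, rose 4.34-fold and Ifitm1 2.31-fold, and Zbp1 fell 3.87-fold and Usp18 2.19-fold (adjusted p = 0.00456, 0.0170, 0.00703 and 0.0275). The higher ones were not called without either mutant, Ifitm1 not without Pax5(+/+) replicate 4 (adjusted p = 0.0766), Zbp1 not without Pax5(+/+) replicate 3 (adjusted p = 0.0504), and Usp18 not without Pax5(+/+) replicate 3 or 4 or either mutant (adjusted p from 0.0902 to 0.245).

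Among genes for chromatin complexes that partner with Pax5, 2 of 19 of the BAF remodelling complex were lower (10.53%, beside 7.74% called over all genes), and the median log2 fold change was -0.05. Smarca4, its ATPase BRG1, was 1697 to 2343 TPM in Pax5(+/+) and 1018 and 1169 TPM in the mutants (1.65-fold, adjusted p = 0.0271), and Bcl7a fell 2.19-fold (adjusted p = 0.0119), but both lost their call without Pax5(+/+) replicate 3 or 4 or either mutant, and without replicate 5, 1 gene was called higher. None of 17 genes of the Set1A-COMPASS and NSL complexes and none of 19 of the Sin3-HDAC and MiDAC complexes was called by limma, with 0 and 2 at an unadjusted p below 0.05, and edgeR and DESeq2 each called 0 and 1. Of 6 Groucho corepressor genes 2 fell (median log2 fold change -1.06): Aes, a short family member, was 703, 867, 664, 639 and 760 TPM in Pax5(+/+) and 209 and 215 TPM in the mutants (3.07-fold, adjusted p = 0.000689), and Tle6 was 3.51-fold lower (adjusted p = 0.00736). Aes kept its call without any 1 sample, whereas Tle6 lost it without Pax5(+/+) replicate 3 or either mutant (adjusted p from 0.0517 to 0.0929).

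The genes that the study names as controlled through the Pax5 C terminus moved as listed. The study chose these lists on samples that include the present ones, so their counts are not independent evidence of a direction. Heyl, Id3, Lef1, Tcf3, Fcrla, Lcp2, Gimap4, Cgas, Ifitm1 and Bcl2l1 are also named by the study. Counts of the lists above that hold them share this limit. Of 25 genes named as activated, 24 were lower and none higher, with a median log2 fold change of -3.06. Both mutants were below every wild-type sample in all 25, beside 20.5% over all genes. Apart from the genes above, Fxyd6, a regulator of ion transport, was 98.2 to 135 TPM in Pax5(+/+) and 3.26 and 6.38 TPM in the mutants (26.6-fold, adjusted p = 0.000210), Tmem132e was 26.5-fold lower (adjusted p = 3.63e-05) and Plxdc1, named after its values were seen, 21.2-fold lower (adjusted p = 0.000157). The gene that was not called was Slamf7, at 123 to 211 TPM against 93.8 and 89.2 TPM (log2 fold change -0.69, adjusted p = 0.205). Of 27 genes named as repressed 21 rose and none fell, with a median log2 fold change of 2.43. Both mutants were above every wild-type sample in 26, beside 14.2% over all genes. The semaphorin gene Sema3g was 7.06 to 14.3 TPM against 89.2 and 94.1 TPM (8.27-fold, adjusted p = 0.000619) and the carbonic anhydrase gene Car3 rose 7.64-fold (adjusted p = 0.00146). Of 17 genes named as independent of the C terminus 1 was called, Nrgn, a calmodulin-binding gene that was 1.77-fold lower (adjusted p = 0.0405), and the median log2 fold change was -0.41. Nrgn was not called without Pax5(+/+) replicate 3 or 4 or either mutant. Without mutant replicate 1 or 2, 18 activated and 11 repressed genes were called.

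**Figure D4:**
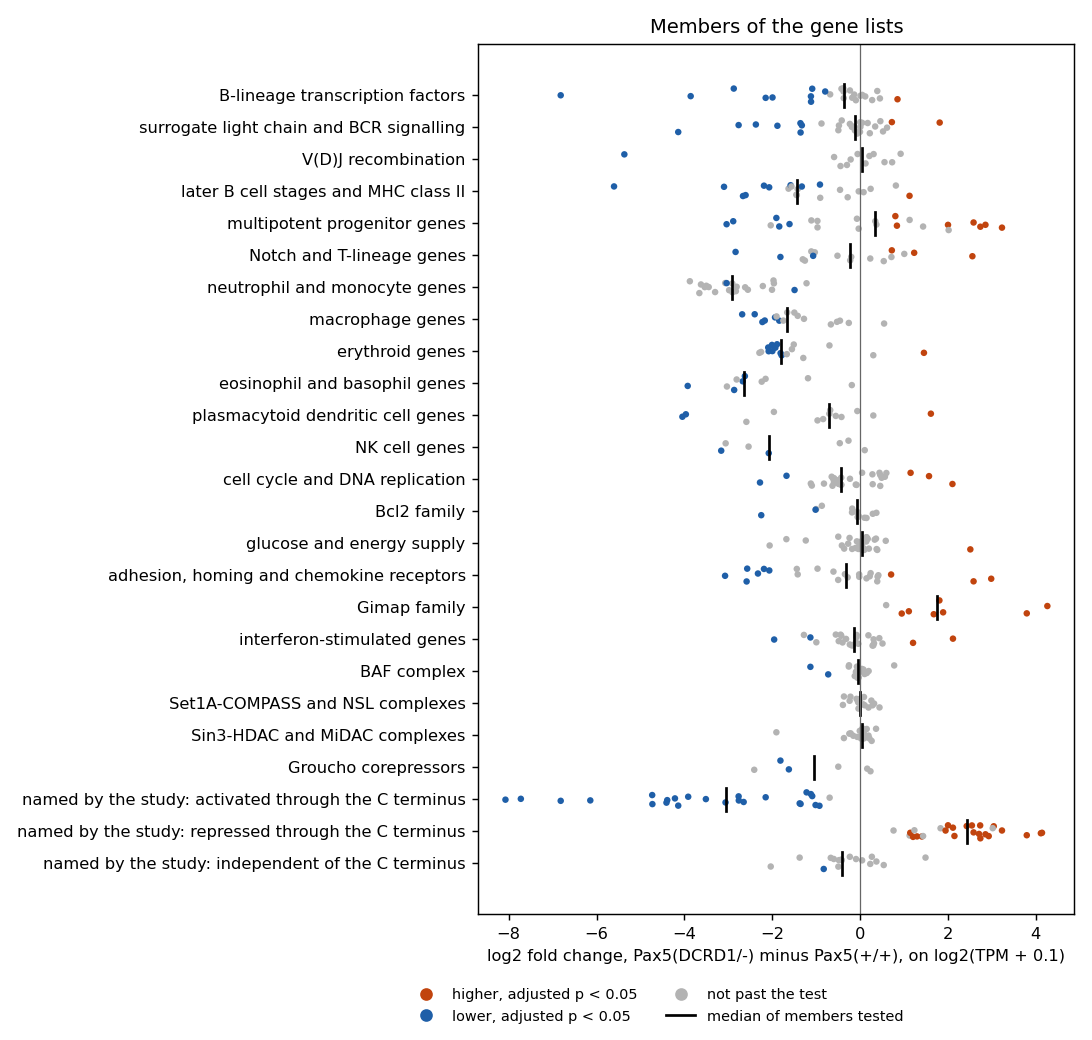
Log2 fold change, Pax5(DCRD1/-) over Pax5(+/+), of each tested member of the gene lists (points, orange if called higher, blue if called lower, grey otherwise), with the median of each list (bar). The medians are -3.06 for the genes named as activated and 2.43 for those named as repressed, and the medians of the 6 lists of other blood cells lie to the left of 0.

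The immunoglobulin and histone genes were set apart from all counts. Among 238 immunoglobulin genes tested 18 were higher and 20 lower, and among 67 histone genes 1 was higher and 5 lower. Over all other genes 2.94% were higher and 4.8% lower. Within 10 Mb of Pax5, 8 of 110 tested genes were called, or 7.27%, beside 7.74% over all genes.

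Other C-terminal mutants allow the hemizygous CRD1 deletion to be placed, in a fit of 15 samples of 6 genotypes. Against Pax5(DCRD2/-) pro-B cells, which lack CRD2 in the 1 allele that is not null and were sorted by the same gate, 36 of 13332 genes were higher (0.27%) and 76 lower (0.57%) past the thresholds in Pax5(DCRD1/-). On the log2 scale with 0.1 TPM added, the lowest were Pde9a, Mir7013 and Grb7. Grb7 was 32.3 and 34.8 TPM in Pax5(DCRD2/-) (log2 difference -5.89). Pde9a was 13.1 and 12.7 TPM there, against 0 and 0.0710 TPM, and Mir7013 was 3.29 and 12.4 TPM there and listed at 0 in both Pax5(DCRD1/-) samples, so that their place depends on the added value. The highest were Mir7045, which was at 0 in 1 Pax5(DCRD2/-) sample, ccdc198 and H19 (log2 differences of the last pair 4.02 and 3.78). Pax5 mRNA was higher by a log2 difference of 0.67 (adjusted p = 0.0244), again a whole-gene value that does not tell the alleles apart. Of the 25 genes named as activated 22 were lower, and of 28 named as repressed 11 were higher. These 2 mutants are both of 100-nt reads. Neutrophil and monocyte markers summed to 18329 and 1398 TPM in Pax5(DCRD2/-) replicates 1 and 2, against 302 and 542 TPM in Pax5(DCRD1/-). The part of other cells in this contrast was not tested, and no fit left out a Pax5(DCRD2/-) sample. Without Pax5(DCRD1/-) replicate 1 or 2 there were 17 and 25 higher and 43 and 64 lower genes, and in a fit of these 2 genotypes alone, with 2 samples each, 1 higher and 1 lower.

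Against Pax5(DCRD1,2/-) cells, which lack both domains and have a null second copy, 51 genes were higher (0.383%) and 35 lower (0.263%) in Pax5(DCRD1/-), but those cells were sorted by another gate (Lin-Ly6D+KithiB220+), so genotype and gate cannot be told apart. Heyl was higher by a log2 difference of 2.10 (adjusted p = 0.0208), and H19 by 2.13 (adjusted p = 0.0351), whereas Flt3 was lower by a log2 difference of 1.56 (adjusted p = 0.000971). Of the 25 genes named as activated 16 were higher and of 28 named as repressed 11 were lower. The 3 lowest genes were Cox6a2, Siglech and Cd7, genes of plasmacytoid dendritic cells and early lymphoid cells (Cox6a2 and Cd7 by log2 differences of -5.97 and -4.64), and Siglech was at 0 in 1 Pax5(DCRD1/-) sample. The 3 highest were Gm25500, Speer2 and Mir7027. Gm25500 and Mir7027 were listed at 0 in both Pax5(DCRD1,2/-) samples and Speer2 in 1 of them, so that their place depends on the added 0.1 TPM. Without Pax5(DCRD1/-) replicate 1 or 2 there were 38 and 30 higher and 14 and 17 lower genes, and with the 2 genotypes alone 2 higher and 1 lower.

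Homozygous Pax5(DCRD1/DCRD1) cells carry the same deletion on both copies, and no gene passed the thresholds in either direction against them (0.0% and 0.0%), with 731 genes (5.48%) at an unadjusted p below 0.05 and a smallest adjusted p of 0.0717 by limma. Other tools were not run on this contrast. Those 2 samples are of 50-nt reads, so the contrast rests on the read-length term, and its median SE was 0.314 against 0.232 for the contrast with Pax5(DCRD2/-). Grb7 was 2.28 and 2.24 TPM in the homozygous cells (log2 difference -2.32, adjusted p = 0.0717) and Heyl differed by -3.41 (adjusted p = 0.138). Ikzf3 differed by -1.84 (adjusted p = 0.275). A p above the threshold does not show that the cells are alike.

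**Figure D5:**
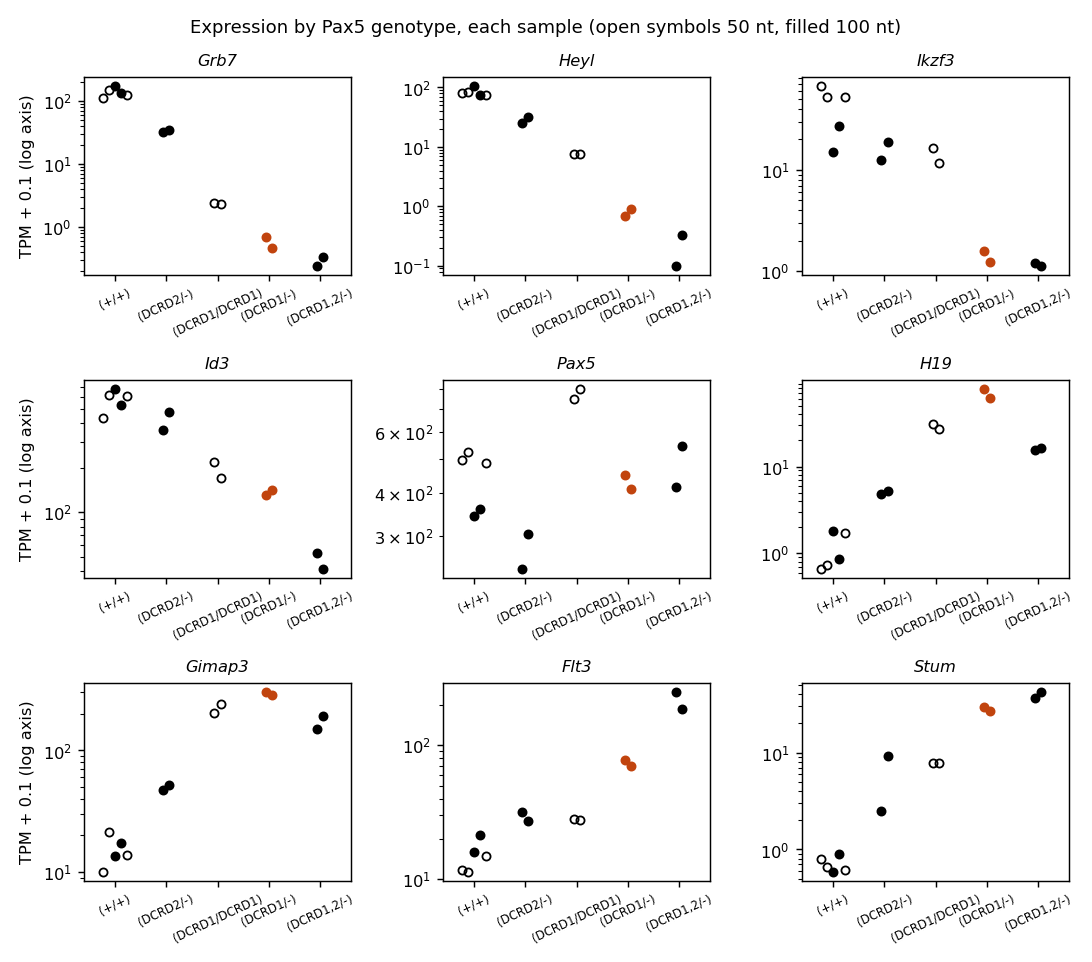
TPM of 9 genes (1 panel each, log axis with 0.1 TPM added) in each sample of 5 Pax5 genotypes, with Pax5(DCRD1/-) in orange, other samples of 100 nt filled and those of 50 nt open. Grb7 is 0.586 and 0.367 TPM in Pax5(DCRD1/-), 2.28 and 2.24 TPM in Pax5(DCRD1/DCRD1) and 32.3 and 34.8 TPM in Pax5(DCRD2/-).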

How the data were processed

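RNA-seq was done by the authors on poly(A) RNA of sorted pro-B cells, with reads trimmed to 50 bases and aligned with STAR 2.4.2a (processing notes of the submitters) to the mouse genome build GRCm38. The read-length term therefore separates samples by their labelled length before trimming. What else differed between samples of the 2 lengths was not tested. The deposited values are TPM per gene, and 2 count columns deposited by the authors served to recover whole reads (tolerance 0.01 reads). These columns gave a relative length for 16745 genes, and all values of those genes gave whole reads. Of the genes above 1 TPM, 187 had no recovered reads. 38 expression columns were not used. The study's methods use DESeq2 on counts, but since the files hold TPM the main fit was limma 3.58.1 (R 4.3.3) on log2(TPM + 0.1) with a read-length term and an intensity trend, over genes above 1 TPM in at least 1 sample, with Benjamini-Hochberg adjustment. Immunoglobulin and histone genes were tested but left out of counts. The contrasts with other mutants used 15 samples. edgeR 4.0.16 and DESeq2 1.42.0 on the recovered reads of 12825 genes were alternatives. The fitting scripts were tested on simulated data.

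Named were Pax5, the 10 highest and 10 lowest genes past the thresholds with no overlap between groups, up to 6 called members of each list, the 3 highest and 3 lowest of each contrast, and others as stated; some genes are not reported here. Members and lists were chosen with earlier results of these data known. Whether replicates came from separate mice is not given, so p-values measure the spread between these samples only. Counting intervals and floors cover counting error only. Sequences were read from the genome and RefSeq annotation of GRCm38.p6 and from the study's list of oligonucleotides.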

Additional observations from a re-analysis of the deposited data

Results flagged for a closer look

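In 10 of 162 groups of 5 Pax5(+/+) samples, 1 sample stood apart from the others by Dixon's test, and chance flags about 1 group in 20. Replicate 4 was high for the eosinophil genes Prg2, with 258.66 TPM against 44.3 to 94.7 TPM in the other samples, and Epx, with 28.97 against 4.30 to 8.29 TPM, and for the summed eosinophil and basophil genes, with 346.52 against 82.4 to 127 TPM. It was also high for Ccl9, with 1.8196 TPM against 0.268 to 0.697 TPM. Replicate 5 had 2.2932 TPM of Gata2 against 0.963 to 1.22 TPM. Replicate 3 had 2.9885 TPM of Bik against 1.83 to 1.93 TPM and 14.264 TPM of Sema3g against 7.06 to 8.47 TPM. Replicate 2 had 9.1766 TPM of Spns2 against 5.15 to 6.06 TPM. Replicate 1 had 17.027 TPM of Cxcr5 against 37.4 to 44.4 TPM, and 1.325 TPM of Mir7052, which was at 0 in the others.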

How the results depend on the processing

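All 301 genes past the thresholds kept their direction under every alternative, except 1 without the read-length term and 1 with a replicate block. In 298 of them both mutants lay outside the wild-type range. For these, leaving out samples could not change the direction, so it does not test it. Of them 163 to 298 stayed called when 1 sample was left out, 181 with the 100-nt samples alone, and 299 with edgeR and with DESeq2. Called genes numbered 172 higher and 265 lower with the 100-nt samples alone, 635 higher with 15 samples in the fit, 626 higher and 1123 lower with DESeq2, 924 lower with edgeR, and 971 lower without the read-length term. Past the thresholds, the 100-nt samples alone gave 67 higher and 112 lower. Members of the lists numbered 72 with these samples alone and 203 with DESeq2. Leaving out 1 sample gave 60 to 419 called higher, 165 to 654 called lower, 48 to 140 past the thresholds higher, 114 to 210 lower and 56 to 146 list members. The cause was not tested, except that fewer samples entered. A block for the replicate numbers shared by both genotypes took 4 samples and no read-length term, and gave 599 higher, 1800 lower and 310 lower past the thresholds. Deviations of same-numbered samples correlated by 0.054 and -0.006, so the numbers were not taken as pairs. With the block Pax5 was at -0.25, Pacsin1 at -0.22, Ebf1 at -0.90 and Rag1 at -0.34, and without the read-length term Pax5 was at -0.0181 and Ebf1 at -0.41. Without 1 sample Pax5 ran from 0.23 to 0.36, Ebf1 from -0.14 to 0.25 and Cd79b from -0.0632 to 0.0843. Cd79b was at -0.00852 with edgeR and -0.0132 with DESeq2. Against other mutants, fits of the 2 genotypes alone gave 1 higher and 1 lower gene against Pax5(DCRD2/-) and 2 higher and 1 lower against Pax5(DCRD1,2/-), and leaving out 1 mutant sample gave 17 to 25, 43 to 64, 30 to 38 and 14 to 17 in that order. Against Pax5(DCRD1/DCRD1), a pseudocount of 0.01 TPM gave 1 higher and 1 lower and a pseudocount of 1 TPM gave 2 lower. At 25403933 to 34905750 reads, folds of genes near 0 TPM are limited by depth and depend on the pseudocount.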

Other observations

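Of the 301 genes past the thresholds, 217 were in no list, and the 6 most abundant of each direction were taken by level. Among the higher ones, Ly6d, a surface marker of lymphoid progenitors that enter the B lineage, was 239 to 478 TPM in Pax5(+/+) and 1908 and 1955 TPM in the mutants (7.23-fold, adjusted p = 0.000275). Il7r, the receptor chain for interleukin-7, was 247, 242, 91.1, 135 and 145 TPM against 374 and 355 TPM (3.28-fold, adjusted p = 0.0107), and its call was lost without Pax5(+/+) replicate 3 or either mutant (adjusted p from 0.0675 to 0.114). The transferrin gene Trf rose 4.55-fold, Adgrg3 6.57-fold, Myl10 4.44-fold and the lysosomal protease gene Lgmn 3.51-fold.

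Among the lower ones, Gpam, an acyltransferase of glycerolipid synthesis, was 207 to 290 TPM in Pax5(+/+) and 38.3 and 37.3 TPM in the mutants (5.90-fold, adjusted p = 0.000210), and Uchl1, a ubiquitin hydrolase, was 4.66-fold lower (adjusted p = 0.000851). The peptidase gene Prep was 295 to 372 TPM against 105 and 100.7 TPM (3.22-fold, adjusted p = 0.00120), and Adgre5, Mxd3 and Selenom were 3.19-fold, 3.05-fold and 3.45-fold lower. Mxd3 and Selenom were not called without Pax5(+/+) replicate 3 or mutant replicate 1 (adjusted p from 0.0569 to 0.228), and Selenom not without mutant replicate 2 either.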
